A study of Mus musculus with 10 samples.

Results

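The 40 genes described here encode the machinery of chromosomal DNA replication. They were listed by function, by a rule that uses no measured value although earlier results of these data were known when the list was drawn up, and were matched by symbol to the Ensembl gene IDs of the deposited tables. All 40 were found among the 22713 genes listed, and all 40 passed the filter on low values, CPM above 1 in at least 1 library, in both expression tables. They comprise the 6 subunits of the MCM2-7 helicase (Mcm2, Mcm3, Mcm4, Mcm5, Mcm6, Mcm7), the origin recognition complex (Orc1, Orc2, Orc3, Orc4, Orc5, Orc6), the licensing factors Cdc6 and Cdt1 with the Cdt1 inhibitor Gmnn, the factors that activate the helicase (Mcm10, Cdc45, Gins1, Gins2, Gins3, Gins4), the sliding clamp Pcna with its loader (Rfc1, Rfc2, Rfc3, Rfc4, Rfc5), the single-strand binding proteins Rpa1 and Rpa2, the polymerase and primase subunits Pola1, Pola2, Prim1, Prim2, Pold1 and Pole, the Okazaki fragment enzymes Fen1 and Lig1, and the nucleotide supply enzymes Rrm1, Rrm2 and Tyms.

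The libraries came from mouse embryonic stem (ES) cells in which the chromatin remodelling ATPase Pontin (gene Ruvbl1), the pluripotency factor Oct4 (gene Pou5f1) or the long intergenic non-coding RNA linc1253 was depleted. Pontin f/f; CreER ES cells, which carry loxP-flanked Pontin alleles and a Cre recombinase activated by 4-hydroxytamoxifen (OHT), were sequenced untreated (WT) and after 3 and 4 days of OHT (the OHT 3D and OHT 4D samples), with 1 library each. ZHBTc4 ES cells, in which tetracycline (Tc) shuts off Oct4, gave 1 library after 2 days of Tc (Tc 2D), 2 libraries 4 days after infection with a control shRNA lentivirus and 2 with an shRNA against linc1253. Chromatin immunoprecipitation (ChIP) with antibodies against Pontin or, as control, GFP gave 1 library each from ZHBTc4 cells. WT was the one untreated library of that table, so at Tc 2D against WT the cell line and the loss of Oct4 cannot be told apart. A line given OHT without the floxed allele was not analysed here, so OHT itself and the loss of Pontin cannot be told apart either.

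Replication is prepared in G1, when the origin recognition complex, Cdc6 and Cdt1 load the MCM2-7 ring onto origins, and Gmnn blocks a second loading later in the cycle. In S phase Mcm10, Cdc45 and the GINS complex turn the loaded ring into an active helicase, primase and polymerase alpha start each strand, and the clamp loader places Pcna for the delta and epsilon polymerases. Transcription of many of these genes is tied to the G1/S transition through E2F factors, and ES cells, which divide rapidly with a short G1, keep them highly expressed.

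The libraries held 17187595 to 37951742 reads on genes, recovered as whole reads from the CPM steps (every value was whole within 0.01 read). Ruvbl1 had 198 CPM, the read count scaled to library size, in WT against 33.3 (OHT 3D) and 50.9 CPM (OHT 4D). Pou5f1 had 301 CPM in WT against 21.1 at Tc 2D. Both targeted genes were thus lower in the libraries labelled for their depletion. At Tc 2D the sum of Ruvbl1 and Pou5f1 was 106 CPM, so Ruvbl1 too was below its WT level in that library. What part this had in the Tc 2D values below was not tested. linc1253 was not analysed here. Markers of other cell types moved too. Of 16 expressed fibroblast genes of a list of 18, 15 were upregulated past the limit used below on both OHT days. The list summed to 878 CPM in WT, 1197 (OHT 3D), 1223 (OHT 4D) and 692 CPM (Tc 2D). Lum was at 0 in WT and OHT 3D, and Postn, Lum, Dcn, Acta2 and S100a4 were at 0 at Tc 2D. In that library 3 of the 16 were upregulated and 7 downregulated, where 23.9% and 25.8% of all expressed genes were. Among 12 expressed trophectoderm markers, 6 were upregulated and 2 downregulated after 3 days of OHT. A day later 9 were upregulated and 1, Tfap2c (-0.59), was downregulated. For primitive endoderm, also with 12 expressed markers, 5 were upregulated on the earlier day and 9 on the later, with 0 downregulated on either. By the same limit 6.01% of all expressed genes were upregulated on the earlier day and 6.48% on the later. The downregulated shares were 5.88% and 8.89%. The methods describe culture either on embryonic fibroblast feeders or without feeders. The part of these cells in the levels below was not tested, and in bulk samples fewer cells of a type and less RNA per cell cannot be told apart.

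Promoters were inspected for the letters of an E2F-type site because these genes are known as E2F targets. RefSeq promoter windows (GRCm38.p6, 250 bases before to 50 bases after the start) were matched for 32 of the 40 genes. The missing ones were Mcm4, Gmnn, Gins1, Gins2, Gins4, Rfc2, Prim2 and Pole. The words TTTCCCGC, TTTGGCGC, TTTCGCGC and TTTGCCGC, searched on both strands with overlaps between words allowed, occurred in 13 of these 32 genes, namely Mcm3, Mcm5, Mcm6, Mcm7, Orc1, Orc3, Cdc6, Cdt1, Gins3, Rfc3, Pola1, Pold1 and Lig1. Some genes had several windows, and 13 of 39 windows (33.3%) held a word, against 2.26% of all 32851 windows and 3.88% of the 12232 windows of expressed genes. CCAAT, another promoter word searched on both strands, was present in 59% of the 39 windows and 37.4% of all windows. The stretches below, from before the start site only, show the matched letters in capitals for genes of 5 roles whose expression is given later.
Mcm5, 5′ to 3′, plus strand, chr8:75109327-75109396: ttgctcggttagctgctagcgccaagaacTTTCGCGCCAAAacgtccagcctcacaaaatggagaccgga
Mcm6, minus strand, chr1:128359738-128359824: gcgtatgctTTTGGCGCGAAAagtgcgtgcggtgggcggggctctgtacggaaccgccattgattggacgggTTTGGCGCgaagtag
Orc1, plus strand, chr4:108579384-108579453: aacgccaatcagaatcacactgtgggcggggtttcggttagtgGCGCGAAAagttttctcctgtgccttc
Cdc6, plus strand, chr11:98907982-98908051: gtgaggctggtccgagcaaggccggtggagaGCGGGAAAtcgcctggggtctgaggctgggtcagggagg
Gins3, plus strand, chr8:95633487-95633556: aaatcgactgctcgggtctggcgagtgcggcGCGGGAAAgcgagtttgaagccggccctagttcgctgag
Pola1, minus strand, chrX:93632255-93632324: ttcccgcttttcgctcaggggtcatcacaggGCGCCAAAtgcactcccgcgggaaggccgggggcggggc

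In Mcm5 and in the upstream pair of Mcm6, 2 words on opposite strands overlapped, and Mcm6 held another copy nearer to its start. Counted from the start, the word began at -27 in Orc1 and -41 in Gins3, and at -138 in both Cdc6 and Pola1. These are matches of letters in fixed windows, and nothing was measured here about factors that bind them.

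In WT the 40 genes summed to 7096 CPM, and levels per kb of exon ran over a wide range between subunits of the same pathway. Exon length counted all annotated exons of a gene merged, which can exceed the length of its message. Mcm3 (148 CPM per kb), Rrm2 (148), Mcm2 (141), Mcm5 (124) and Pcna (118) headed the order. Subunits of the helicase ring, the small subunit of ribonucleotide reductase and the clamp were thus highest on this scale. All 6 MCM2-7 subunits lay between 74.9 and 148 CPM per kb, whereas the origin recognition complex ranged from 7.65 (Orc4) to 68.8 (Orc6). The licensing pair Cdt1 (74.5) and Gmnn (73.5) stood side by side, far above Cdc6 (15.1). Gins3 (7.21) and Fen1 (1.02) closed the order.

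The value of Fen1, the flap endonuclease, is uncertain. It had 2.46 CPM in WT, 3.12 (OHT 3D), 2.5 (OHT 4D) and 2.47 CPM (Tc 2D), and 3.10 to 5.15 CPM in the 4 shRNA libraries. Its exons (chr19:10273622-10278659 on NCBIM37) overlap the annotated genes 1810006K21Rik and Gm10143 over 84.2% of their length, and Gins2 (chr8:123102533-123113204) shares 67.3% with Gse1. Of the other 38 genes, none shared more than 12.7% of its exon bases with another gene. Reads in shared exons may have been set aside or split by the authors' counting, whose overlap and strand settings are not given in the sources used here. Reads could align to up to 10 places, and Pcna has processed pseudogenes, so its count carries the same doubt.

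**Figure D1:**
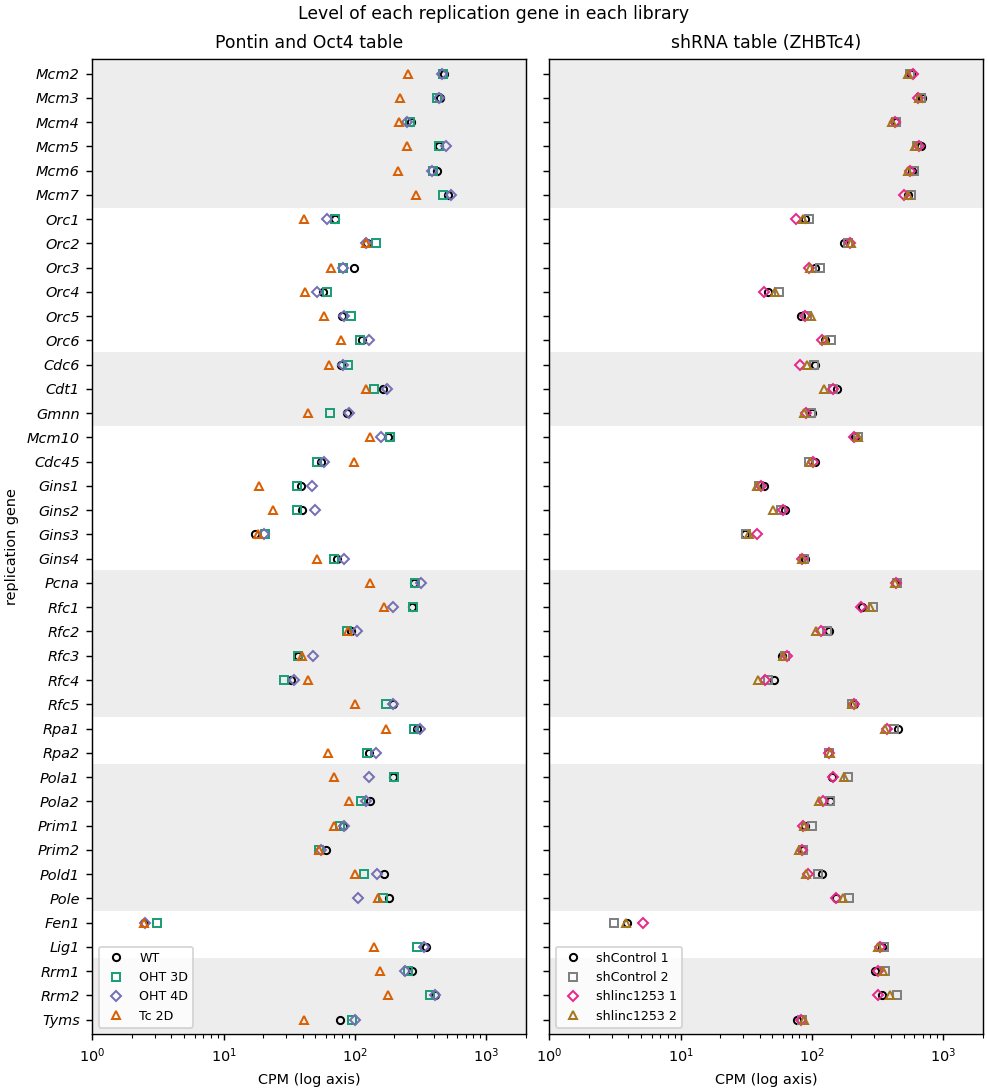
Level of each replication gene (CPM, log axis) in the 4 libraries of the Pontin and Oct4 table on the left and the 4 shRNA libraries of the separately normalized table on the right, 1 symbol per library and shaded bands for roles. The Tc 2D symbols lie left of WT for most genes, whereas the 2 control and 2 knockdown symbols largely cover each other.

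The first question was whether replication genes responded when Pontin was lost. At OHT 3D none of the 40 genes was past the limit of 0.58 on the log2(CPM + 1) scale (1.5-fold) in either direction. Over all 13449 expressed genes 6.01% were upregulated and 5.88% downregulated by that rule, which has no replicate check since each condition had 1 library. The median log2-fold-change of the 40 genes was -0.08, against -0.02 over all expressed genes, and 27 of the 40 were below 0. The genes nearest the limit were Pold1, the catalytic subunit of polymerase delta, with -0.50 (166 CPM in WT and 117 at OHT 3D), and Gmnn with -0.44 (87.4 and 64.2 CPM). Tyms, thymidylate synthase, had the highest value, 0.29.

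At OHT 4D 2 genes were downregulated and none was upregulated, 5% of the 40 in the downward direction against 8.89% of all expressed genes, and 6.48% of all expressed genes were upregulated. The median was 0.02. Both genes encode catalytic polymerase subunits. Pole, of polymerase epsilon, had 183 CPM in WT, 163 after 3 days and 105 after 4 days of OHT. Its log2-fold-change was then -0.80, and the reads alone gave an exact 95% interval of -0.88 to -0.73, which covers counting error only. Pola1, of polymerase alpha, had 197, 198 and 129 CPM in the same order, a log2-fold-change of -0.60 with an interval of -0.68 to -0.54. Both therefore matched WT more closely at OHT 3D than at OHT 4D. Gmnn, at 90.2 CPM on OHT 4D, and Pold1, at 149 CPM, were closer to WT on that day than at OHT 3D.

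The MCM2-7 subunits showed the smallest spread among the roles with 6 genes after OHT. Their log2-fold-changes ran from -0.11 (Mcm7) to 0.01 (Mcm5) at OHT 3D and from -0.11 (Mcm6) to 0.19 (Mcm5) a day later. Mcm2, for instance, had 475, 469 and 466 CPM in WT, OHT 3D and OHT 4D, and Mcm5 had 435, 439 and 498 CPM. In the origin recognition complex Orc1 was at 70.2, 70.3 and 60.9 CPM, and Orc3 had the lowest value at both times, -0.28 and -0.29. Among licensing factors Cdc6 was at 79.0, 88.8 and 81.2 CPM and Cdt1 at 163, 141 and 177 CPM. In helicase activation Cdc45 stayed between 51.8 and 58.4 CPM, and Gins2 had the highest value at OHT 4D (0.30). Each of these genes stayed within the limit on both days. Pcna was at 283, 288 and 322 CPM, Rpa1 at 300.05, 284 and 312 CPM, and Rpa2 at 127, 123 and 144 CPM. Lig1, the ligase that seals Okazaki fragments, was at 348, 297 and 334 CPM. Rrm2 was at 409, 376 and 411 CPM and Tyms at 77.1, 94.7 and 100.9 CPM. None of these passed the limit, and without replicates of these conditions no difference could be tested. Between the 2 control shRNA libraries, replicates of another experiment in ZHBTc4 cells, the median absolute difference of the 40 genes was 0.10 and the largest 0.40 (Pola1).

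The 2 genes downregulated at OHT 4D are the longest of the group, with 9.59 kb (Pole, chr5:110715325-110766493 on NCBIM37) and 8.81 kb (Pola1, chrX:90550106-90877494) of exon. In that library the log2-fold-change followed exon length over all genes. Spearman's rho was -0.39 over 12870 expressed genes and -0.53 over the 40, given as a description across genes that share 2 libraries. Expressed genes with over 8 kb of exon had a median of -0.34, and 28.5% of them were downregulated. Pole and Pola1 lay below that median. Relative to the median of genes of like length, a comparison chosen after seeing the data, Pole was at -0.46 and Pola1 at -0.27. Neither was then past the limit, and Tyms was just past it at 0.58. The share of all genes past the limit was not computed on this measure. Over the 12870 genes rho was 0.16 at OHT 3D. Replicates of one condition showed a relation to exon length too. Between the control shRNA libraries (2 over 1) rho was 0.20 over all genes and 0.47 over the 40. Between the knockdown libraries it was 0.16 and 0.51. Rfc1, with 6 kb the long subunit of the clamp loader, had 0.02 at OHT 3D and then -0.47 at OHT 4D. The cause of the length relation was not tested.

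**Figure D2:**
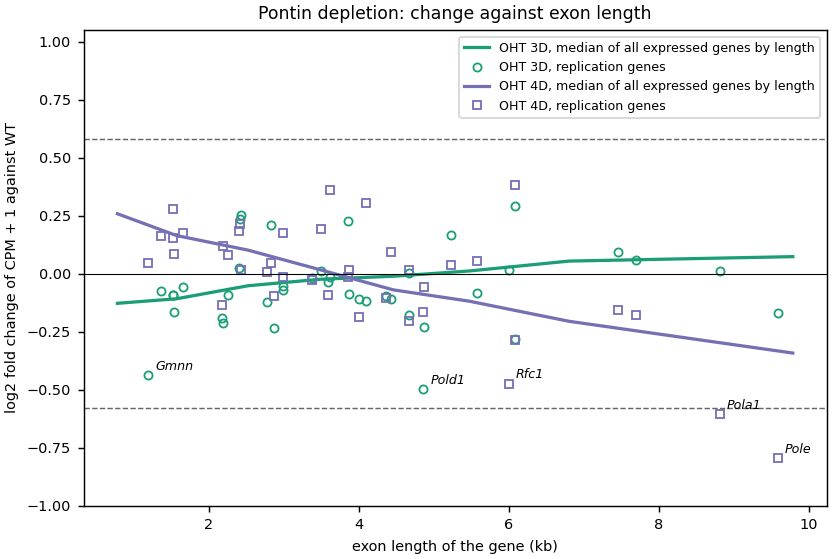
Log2-fold-change against WT (vertical axis) plotted against exon length in kb for the replication genes (open symbols) at OHT 3D and OHT 4D, with lines joining the medians of all expressed genes by length. At OHT 4D the line descends from 0.26 for the shortest genes to -0.34 for the longest, and Pole and Pola1 sit lowest at its far end.

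The second question was what happened to these genes when Oct4 was depleted. At Tc 2D 21 of the 40 genes (52.5%) were downregulated against WT and 1 was upregulated, while 25.8% of all expressed genes were downregulated and 23.9% upregulated. Among the 7232 genes with a mean of at least 20 CPM, a range nearer to the levels of most replication genes, 30.6% were downregulated. The median of the 40 genes was -0.65, against -0.06 over all expressed genes and -0.24 over those 7232. Of the 40, 35 were below 0. The summed level of the 40 genes was 4278 CPM at Tc 2D, the lowest of the 8 libraries. This comparison rests on 1 library per side.

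**Figure D3:**
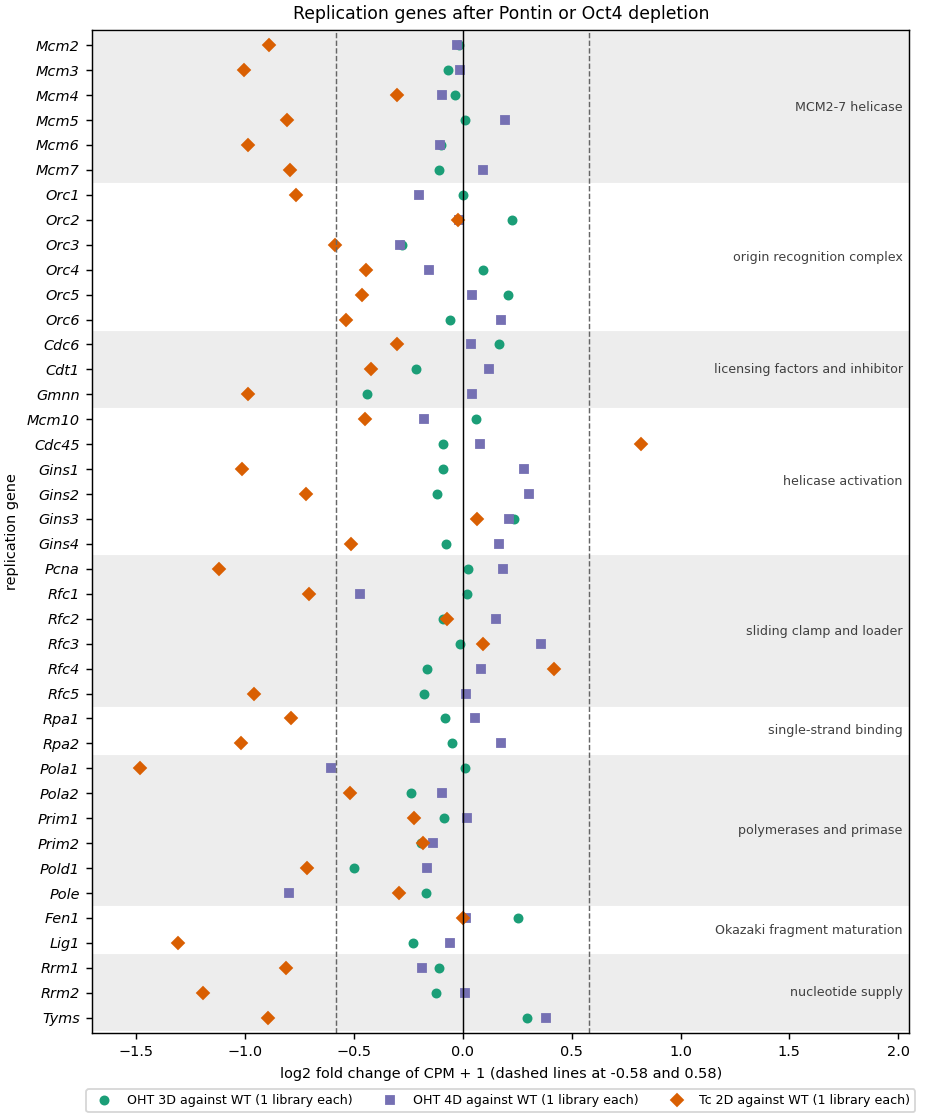
Log2-fold-change of CPM + 1 against WT for each of the 40 replication genes, grouped by role, at OHT 3D, OHT 4D and Tc 2D, with dashed lines at -0.58 and 0.58. The OHT symbols stay between the dashed lines except Pole and Pola1 at OHT 4D, and 21 of the Tc 2D symbols lie left of the lower line.

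The count at Tc 2D depended on how the library was scaled. The deposited values, after TMM normalization, summed to 638591 CPM over genes at Tc 2D and to 775050 to 798811 in the other 3 libraries of the table. With each library divided by its own total instead, the 40 genes gave 11 downregulated and 2 upregulated with a median of -0.33, where 16.4% of all expressed genes were downregulated and 35.4% upregulated. Over all expressed genes the upregulated share of the calls went from 48.1% to 68.3% as the overall median moved to 0.24. Such a scaling moves all genes of a library alike, so the distance of the 40 genes from the median of all expressed genes, -0.59 in the deposited values, hardly depends on it.

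By role, 5 of the 6 MCM2-7 subunits were downregulated at Tc 2D. Mcm3 was at 443 CPM in WT and 220 at Tc 2D, a log2-fold-change of -1.0. Mcm2 was at 475 and 256 CPM, and Mcm5 at 435 and 249 CPM. Mcm4 (-0.30) was the subunit that did not reach the limit against WT. In the origin recognition complex 2 of 6 were downregulated, Orc1 with 70.2 and 40.9 CPM (-0.77) and Orc3 with -0.59, the called value closest to the limit in the whole group. Orc6 (-0.53) came just short of the limit and was not called, and Orc2 was at -0.02.

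Of the licensing genes, the inhibitor Gmnn was downregulated with 87.4 CPM in WT and 43.6 at Tc 2D (-0.99). Cdc6 was at 79.0 and 63.9 CPM and Cdt1 at 163 and 121 CPM, neither past the limit. Helicase activation was divided against WT. Gins1 (-1.01) and Gins2 (-0.72) were downregulated, Mcm10 (-0.45) and Gins4 (-0.51) were not past the limit, and Gins3 was at 0.06. Cdc45, which travels with the helicase, was the 1 gene upregulated, from 55.2 CPM in WT to 98.2 at Tc 2D (0.82).

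The clamp and the single-strand binding proteins were among the lower values. Pcna was at 283 CPM in WT and 130 at Tc 2D (-1.12), and Rpa2 at 127 and 62.3 CPM (-1.02), with Rpa1 at 173 CPM (-0.79). Against WT the loader subunits were unlike each other. Rfc1 (-0.71) and Rfc5 (-0.96) were downregulated, and Rfc2 (-0.07), Rfc3 (0.09) and Rfc4 (0.42) were not past the limit. Pola1 had the lowest value of the 40, with 197 and 69.7 CPM (-1.48). Lig1 followed with 348 and 140 CPM (-1.31), and Rrm2 with 409 and 178 CPM (-1.19). All 3 nucleotide supply genes were downregulated, Tyms with 77.1 and 41.0 CPM (-0.90) and Rrm1 with -0.81. Pold1 (-0.72) was the other downregulated polymerase subunit, while Pola2 (-0.52), Prim1 (-0.22), Prim2 (-0.18) and Pole (-0.29) were not past the limit.

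The ZHBTc4 control shRNA libraries share the cell line of the Tc 2D library, but they were infected, were sequenced on a different instrument per the methods and were normalized in a table of their own, so levels across the tables are set side by side with that limit. Against their mean, with values as deposited, 29 of the 40 genes were downregulated and none was upregulated, where 29.8% of the 12872 genes expressed in both tables were downregulated. After all 8 libraries were put on one median-ratio scale the count was 19, against 22.8% of genes. Mcm3 was at 685 and 681 CPM in these controls and Mcm5 at 674 and 631 CPM, and the log2-fold-change of Mcm3 at Tc 2D against them was -1.63 as deposited and -1.44 on one scale. Pcna, at 433 and 446 CPM in the controls, had the lowest value at Tc 2D against them, -1.75 as deposited and -1.56 on one scale. Between the controls and WT on one scale, none of the 6 MCM2-7 subunits was past the limit, with values from -0.04 (Mcm7) to 0.54 (Mcm4).

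Some values turned with the choice of control. On one scale against the ZHBTc4 controls Mcm4 (-0.82) was called, so that all 6 MCM2-7 subunits were downregulated, while Orc3 (-0.56), Rfc1 (-0.49) and Pold1 were no longer called. Gins3 (-0.56), Rfc2 (-0.39) and Rfc3 (-0.42) were then below 0 but not past the limit, and Rfc4 was at 0.03. The differences within these roles were thus partly tied to the control used. Cdc45 was at 106 and 94.5 CPM in the ZHBTc4 controls, close to its 98.2 CPM at Tc 2D and well above its 55.2 CPM in WT, and its log2-fold-change against them was -0.03 as deposited and 0.16 on one scale, neither past the limit. Pold1 was at 119 and 111 CPM in the controls, which left -0.18 as deposited and 0.00 on one scale. On one scale Cdc45 (0.68) and Gins3 (0.64) were higher, and Pold1 (-0.70) lower, in the controls than in WT, the 3 replication genes past the limit in that comparison of lines. Of the 12872 genes expressed in both tables, 12.4% were past it upwards and 14.2% downwards. By contrast Lig1, at 341 and 353 CPM, Rrm2, at 340 and 444 CPM, Rpa2, at 133 and 135 CPM, and Gmnn, at 100.1 and 99.1 CPM, stood above Tc 2D whichever line served as control. Pola1 (142 and 188 CPM) and Tyms (76.9 and 83.6 CPM) did so too.

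Other genes moved in the same library. Of 42 further replication genes, such as the remaining polymerase subunits, origin firing factors and chromatin assembly factors, 18 (42.9%) were downregulated at Tc 2D and 1 was upregulated, Donson (14.3 and 31.1 CPM, 1.07). Against the ZHBTc4 controls on one scale 13 (31%) were downregulated, where 22.8% of genes were, and 1 was upregulated, Pold4 (0.77). Donson, at 29.1 and 25.6 CPM there, was at 0.36 and no longer past the limit. The lowest against WT were Rnaseh2b (60.7 and 18.1 CPM, -1.69) and Rnaseh2c (-1.67), subunits of the nuclease that removes ribonucleotides from DNA. Rnaseh2b was at 25.4 and 32.1 CPM in the ZHBTc4 controls, which gave -0.63 as deposited and -0.44 on one scale, and Rnaseh2c was at -1.17 and -1.0. In the same list 1 gene was downregulated at OHT 3D, Chaf1b (-0.60), and 1 at OHT 4D, Atad5 (-0.92, 7.53 kb of exon). Of 25 mitosis genes 16 (64%) were downregulated at Tc 2D, where 25.8% of all expressed genes were, 3 (12%) at OHT 4D, where 8.89% were, and 0 at OHT 3D, where 5.88% were. Of 12 expressed trophectoderm markers 9 were upregulated at Tc 2D, and 1, Tfap2c (-1.16), was downregulated, the list summing to 285 CPM in WT and 608 at Tc 2D. Of 12 expressed primitive endoderm markers 7 were upregulated and 0 downregulated. Of 19 pluripotency genes 17 were downregulated and 1, Tbx3 (1.28), was upregulated, with sums of 4670 and 843 CPM. The part of this change of cell state in the replication genes was not tested.

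Genes with and without the E2F-type words were compared as a description. At Tc 2D against WT the 13 genes with a word had a median of -0.77, with 9 downregulated. The 19 without had a median of -0.53, with 9 downregulated, where 25.8% of all expressed genes were. The ranges, -1.48 to 0.09 and -1.19 to 0.82, overlapped over most of their width. Against the ZHBTc4 controls on one scale Orc3 and Pold1, with a word, and Rfc1, without, were no longer called. At OHT 4D the medians were -0.01 and 0.02.

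The third question was whether knockdown of linc1253 touched these genes. No replication gene passed an adjusted p of 0.05 in limma (smallest adjusted p = 0.573), and 0% of the 13407 genes tested did. The labels do not say that the replicates came from separate cultures, so p-values measure only the spread between these libraries, which may be technical. At an unadjusted p of 0.05, 5 of the 40 genes were lower and 0 higher in the knockdown, where 3.75% of all genes tested were lower and 3.7% higher. On the recovered reads edgeR called 0 of the 40 after adjustment and 4 at an unadjusted p of 0.05, and DESeq2 called 0 and 2, with no adjusted p for 1 gene. Over all genes edgeR called 0 after adjustment and DESeq2 called 22 higher and 28 lower. The median log2-fold-change was -0.07, against -0.001 over all genes, and 32 of the 40 values were below 0.

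The 5 genes were Pold1, Cdc6, Rpa1, Rfc2 and Pola2. Pold1 was at 119 and 111 CPM in the control libraries and 93.4 and 90.0 in the knockdown libraries, a log2-fold-change of -0.32 ± 0.09 (SE, n = 2 per group, limma, adjusted p = 0.573). Cdc6 was at 106 and 104 CPM in the controls and 81.8 and 92.4 after knockdown, -0.27 ± 0.10 (SE, limma, adjusted p = 0.632). Rpa1, a subunit of the single-strand binding complex, was at 451 and 420.3 CPM and at 377 and 360.1, -0.24 ± 0.09 (SE, limma, adjusted p = 0.632). In this fit, which had no block for the replicate number, none of the 3 passed after adjustment over all genes.

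For the remaining representatives the groups lay within or near each other. Mcm2 was at 567 and 560 CPM in the controls and 585 and 540 after knockdown, Mcm5 at 674 and 631 against 656 and 607, and Pcna at 433 and 446 against 439 and 433. Cdt1 was at 156 and 145 CPM against 146 and 125, and Cdc45 at 106 and 94.5 against 102 and 97.0. In these 5 genes the ranges overlapped. Orc1 (89.4 and 95.3 CPM against 75.2 and 86.0) and Gmnn (100.1 and 99.1 against 89.5 and 87.5) were lower in both knockdown libraries, and Lig1 (341 and 353 against 331 and 322) was too. Rpa2 (133 and 135 against 136 and 138) was slightly higher in both. The MCM2-7 subunits other than Mcm2 and Mcm5 were lower in both knockdown libraries as well. The share of all genes without overlap between the groups was not computed.

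Differences between replicates exceeded those between groups for some long or abundant messages. Pola1 was at 142 and 188 CPM in the controls and 144 and 177 after knockdown, Pole at 152 and 190.5 against 153 and 173, and Rrm2 at 340 and 444 against 319 and 395. In each group the library numbered 2 was the higher one for these genes. Tyms was at 76.9 and 83.6 CPM in the controls and 82.9 and 86.6 in the knockdown.

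**Figure D4:**
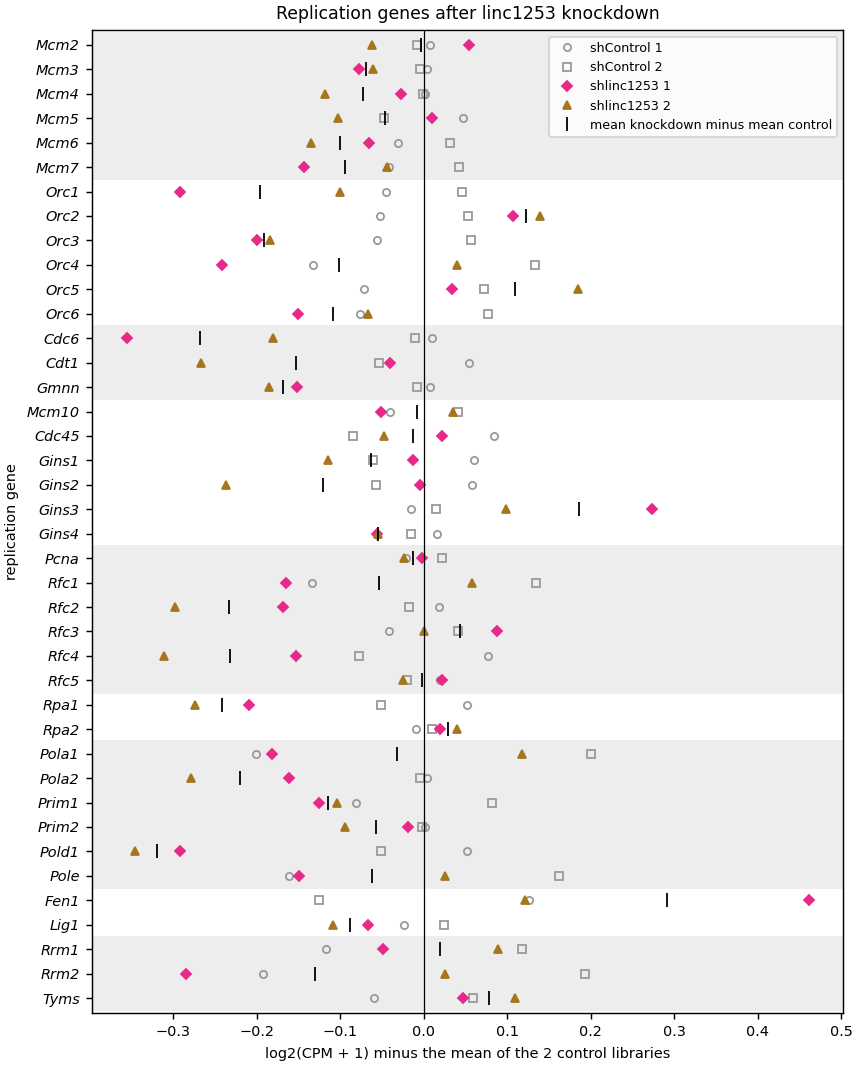
Log2(CPM + 1) of each replication gene in the 2 control shRNA and 2 linc1253 shRNA libraries, minus the mean of the controls, with a black bar at the mean knockdown difference. The bars run from -0.32 (Pold1) to 0.29 (Fen1), and the spread between libraries of one group is of the same size for many genes.

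The last question was whether Pontin occupied these promoters. A window that began 2.5 kb before each annotated start (NCBIM37) and ended 500 bases after it was used to count reads in the Pontin ChIP (40729076 reads) and the GFP ChIP (17185883 reads), 1 library each. The median log2 ratio of Pontin to GFP over the 40 promoters, scaled by library size, was 0.40, against 0.45 over promoters of expressed genes, 0.34 over all protein-coding promoters and 0.03 over those of silent genes. A ratio past 1 was found in 7 of the 40 (17.5%), and in 17.3% of promoters of expressed genes. With scaling by the median ratio over all promoters the median of the 40 was 0.06, against 0.11 for expressed genes. The size of single ratios, and the sign of some, thus depend on the scaling. By both scalings the replication promoters were near the level of expressed genes in general.

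The 7 were Gins4 (1.61), Mcm6 (1.24), Cdc6 (1.21), Rrm2 (1.12), Rfc2 (1.1), Gmnn (1.06) and Mcm2 (1.03). Gins4 rested on 87 Pontin and 12 GFP reads, with an exact 95% interval of 0.74 to 2.62 that covers counting error only. At the other end, Gins2 (-0.89), Mcm10 (-0.87), Rfc1 (-0.63) and Gins3 (-0.54) had more GFP than Pontin reads after scaling, with intervals below 0. Pole, the gene lowest at OHT 4D, was at -0.07, and Pola1 at 0.25 with an interval of -0.40 to 0.94. Reads per promoter were few, with medians of 87 for Pontin and 27 for GFP, and both mates of a fragment were counted, so the intervals are too narrow.

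Around the start sites the 2 libraries differed in shape. In the 250 b after the start the replication genes averaged 0.266 RPM (reads scaled to library size) in the Pontin ChIP and 0.135 in the GFP ChIP, and expressed genes 0.226 and 0.111. In a window of 1 kb either side of the start the median log2 ratio of the 40 was 0.70, against 0.67 for expressed genes.

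**Figure D5:**
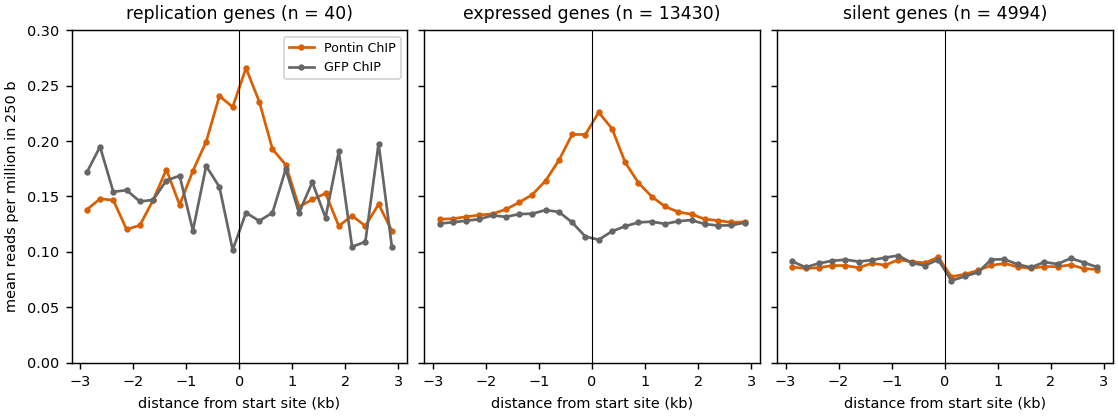
Mean ChIP signal in RPM in bins of 250 b (vertical axis) by distance from the start site in kb, for the Pontin and GFP libraries, over the 40 replication genes, 13430 expressed genes and 4994 silent genes. The Pontin line stands above the GFP line around the start in the panels of replication and expressed genes, and both lines run together in the silent genes.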

How the data were processed

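mRNA was sequenced in 8 libraries and ChIP DNA in 2. Per the methods and the submitters' processing notes, the authors trimmed reads with cutadapt, aligned them to NCBIM37 with TopHat (mRNA, up to 10 locations) or Bowtie2 (ChIP, unique reads), counted mRNA reads on genes with HTSeq and deposited CPM after TMM normalization in edgeR, as 2 separately normalized tables, and the aligned ChIP reads. These deposited files carry a mapping quality score for each read from the authors' alignment, with both mates listed, and here reads were counted per promoter. The 40 genes and the other lists were chosen with earlier results of these data known. Log2-fold-changes used a pseudocount of 1 and genes with CPM above 1 in at least 1 library of a table, and with 1 library per condition a gene past 0.58 was called with no test. The linc1253 knockdown was tested with limma 3.58.1 with a trend on log2(CPM + 1), Benjamini-Hochberg over all genes, two-sided, with edgeR 4.0.16 and DESeq2 1.42.0 on whole reads recovered from the CPM steps (100% of values) as alternatives. Exon lengths and overlaps came from GENCODE M1 (NCBIM37), promoter windows from RefSeq (GRCm38.p6). Genes named with values in every library were the 5 largest calls each way at OHT 3D, OHT 4D and Tc 2D, the 3 lowest p after knockdown and 13 representatives of the roles, with Mcm3 added after its values were seen. Scripts were tested on simulated data. Silent genes were at or under 0.1 CPM in every library.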

Additional observations from a re-analysis of the deposited data

How the results depend on the processing

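The OHT 3D counts stayed at 0 under all alternatives tried. The median ranged from -0.08 to -0.02 at OHT 3D and from -0.02 to 0.06 at OHT 4D, where it was below 0 relative to genes of like exon length. At OHT 4D the 2 downregulated genes became 1 after library-total scaling (1108 of all 13449 genes) and 0 with a limit of 1 on the log2 scale (216). Relative to genes of like exon length, chosen after seeing the data, 0 were downregulated and 1 upregulated. The share of all genes past the limit was not computed for comparisons by like length. At Tc 2D library-total scaling gave 2 up, 11 down and a median of -0.33, median-ratio rescaling a median of -0.57, a limit of 1 gave 0 up and 7 down (1718 and 1696 of all 13449 genes), and comparison by like length 2 up. Against the ZHBTc4 controls 0 were up with medians of -0.75 (as deposited) and -0.57 (one scale), Cdc45 turned to -0.030 as deposited but was 0.16 on one scale, and Pold1 to 0.00, at 0.0049, on one scale. In the linc1253 knockdown, fitting the replicate number as a block called 9 of the 40 genes at an adjusted p of 0.05 in limma, all lower (Orc1, Orc3, Cdc6, Gmnn, Rfc2, Rfc4, Rpa1, Pola2 and Pold1), among 933 higher and 1027 lower genes in all, and 14 of the 40 unadjusted, 3 higher and 11 lower, where 1922 and 2031 of all 13407 genes were. Same-numbered libraries deviated together (r = 0.67 over 13407 genes and 0.85 over the 40 genes). However, with 2 pairs that share only a number the labels do not pair them. Unadjusted counts were 1 without the trend, 2 with DESeq2, 4 with edgeR and 7 without the filter on low values, and adjusted counts were 0. Without that filter all 7 were lower, where 812 of 22713 genes were. When 1 library was left out the medians ran from -0.10 to -0.06. DESeq2 called 22 genes higher and 28 lower in all, and without shlinc1253 replicate 1 limma called 14 and 3 (1 and 2 without shControl replicate 2), the lone library then being assumed to vary like the others. The Pontin ChIP median was 0.70 within 1 kb of the start, 0.061 with median-ratio scaling and -0.54 for the 3 promoters with at least 50 GFP reads, where expressed genes had 0.67, 0.11 and -0.51. The last filter acts on the denominator and lowers the ratio by construction. No difference, under or past 0.58, could be tested in the 1-library comparisons, and the promoter ratios rested on few reads. The cause of these shifts was not tested.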

Other observations

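Genes that control the G1/S transition, from a list of 32, gave larger single values than the replication genes. At Tc 2D 14 of the 32 (43.8%) were downregulated and 1 upregulated, where 25.8% and 23.9% of all expressed genes were. Against the ZHBTc4 controls on one scale 13 were downregulated and 4 upregulated, where 2939 and 2977 of 12872 genes were. Among the 4 was Cdkn1a, named after its values were seen, with 0.09 against WT and 1.75 against the controls. Ccnd1, which encodes cyclin D1, had 123, 177 and 129.9 CPM in WT, OHT 3D and OHT 4D but 10.4 CPM at Tc 2D (-3.45 against WT), and stood at 129 and 136 CPM in the ZHBTc4 controls. Ccnd2 (cyclin D2) was at 7.2 CPM in WT and 1.02 at Tc 2D (-2.02), and E2f6, a repressive member of the E2F family, was at 18.6 and 50.01 CPM (1.38).

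After OHT Ccnd2 was the gene of this list with the largest value at both times, with 37.9 CPM at OHT 3D (2.25) and 23.8 at OHT 4D (1.60), in the libraries where fibroblast genes were also higher. Cdkn1b, a cyclin-dependent kinase inhibitor, had 32.4 CPM in WT against 18.1 (OHT 3D, -0.80) and 28.2 (OHT 4D). At OHT 4D Cdkn2a (0.85) and Ccnd3 (0.71) were the other upregulated genes of the list, and E2f7, with 9.01 kb of exon and named after its values were seen, was the 1 downregulated (29.0 and 17.7 CPM, -0.68). These comparisons rest on 1 library each and share the WT library.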
